A study of Mus musculus with 6 samples.

Results

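The Krüppel-like factor (Klf) genes described here are 10 genes, Klf3, Klf4, Klf5, Klf6, Klf9, Klf10, Klf12, Klf13, Klf14 and Klf16, of 21523 protein-coding mouse genes that could be placed. They were chosen from 2 sources. Klf3, Klf10, Klf12, Klf13, Klf14 and Klf16 entered because a peak of the transcription factor SP8 lies near each of them, and Klf4, Klf5, Klf6 and Klf9 entered because they are known in epithelia. Binding of SP8 was profiled by chromatin immunoprecipitation and sequencing (ChIP-seq) in the ectoderm, the surface layer, of mouse forelimb buds at stage E10.5, when the buds are young and still growing out. Embryos were homozygous for a knock-in allele labelled Sp8FL KI, on the C57BL6J background, in which SP8 carries a FLAG tag, and an anti-FLAG antibody pulled down the tagged protein with its DNA. The series holds 6 libraries: 2 SP8 immunoprecipitations and 2 inputs without antibody from the tagged embryos, and 1 immunoprecipitation of dimethylated histone H3 lysine 4 with 1 input from embryos labelled WT, on the same background. Each replicate pooled the ectoderm of 50 forelimb buds, so single embryos cannot be told apart. The sample descriptions give 0.25% trypsin for 20 min and 18 PCR cycles for all 6 libraries. The values below come from 1 list of 1451 peaks, which the authors named for SP8 replicate 1. Replicate 2, the histone mark and the inputs were not analysed here, so each peak is a single call of unknown depth with no replicate check. No RNA was measured, and neither the ectoderm identity of the cells nor the level of any Klf transcript can be read from the list.

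KLF proteins are transcription factors with zinc fingers near their carboxyl end. They share this DNA-binding domain with the SP proteins, SP8 among them, and both families bind GC-rich elements known as GC boxes and CACCC boxes. Outside the fingers the KLF proteins differ. KLF3, KLF8 and KLF12 carry a motif that recruits the corepressor CtBP. KLF9, KLF10, KLF11, KLF13, KLF14 and KLF16 recruit the corepressor SIN3A. KLF1, KLF2, KLF4, KLF5, KLF6 and KLF7 are best known as activators that work with histone acetyltransferases. In skin, KLF4 is required for the epidermal barrier, KLF5 is expressed in dividing basal cells, and KLF9 links the circadian clock and glucocorticoid signals to keratinocyte growth.

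Promoter sequences are shown first because 6 of the peaks near Klf genes were centred within 1 kb of a gene boundary. RefSeq promoter windows of assembly GRCm38.p6, which run from 250 bases before to 50 bases after an annotated transcription start, were found for 6 of the 10 genes: Klf3, Klf4, Klf6, Klf9, Klf12 and Klf13. No window was found for Klf5, Klf10, Klf14 and Klf16. The 250 bases before the start are printed 5′ to 3′ on the strand of the gene for 2 genes whose window lay under an SP8 peak, Klf3 (chr5:64803271-64803520, plus strand) and Klf13 (chr7:63938916-63939165, minus strand). For contrast they are printed for 2 epithelial genes with no peak within 200 kb, Klf4 (chr4:55532476-55532725, minus strand) and Klf9 (chr19:23140976-23141225, plus strand). Capitals mark every GC box, GGGCGG or its reverse complement CCGCCC, and every CACCC box, GGGGTG or its reverse complement CACCCC. Only full matches to these 6 letters count as a box here, and partial matches stay in lower case.
Klf3: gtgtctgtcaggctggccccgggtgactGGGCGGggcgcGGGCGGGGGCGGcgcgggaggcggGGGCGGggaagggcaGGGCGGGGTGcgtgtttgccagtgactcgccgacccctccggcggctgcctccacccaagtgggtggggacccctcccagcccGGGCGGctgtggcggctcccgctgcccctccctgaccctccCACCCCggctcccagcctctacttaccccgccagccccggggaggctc
Klf13: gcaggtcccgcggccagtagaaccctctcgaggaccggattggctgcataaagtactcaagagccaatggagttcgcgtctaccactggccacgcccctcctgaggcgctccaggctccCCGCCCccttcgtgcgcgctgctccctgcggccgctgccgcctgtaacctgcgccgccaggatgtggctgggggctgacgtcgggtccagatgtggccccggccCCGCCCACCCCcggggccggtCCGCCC
Klf4: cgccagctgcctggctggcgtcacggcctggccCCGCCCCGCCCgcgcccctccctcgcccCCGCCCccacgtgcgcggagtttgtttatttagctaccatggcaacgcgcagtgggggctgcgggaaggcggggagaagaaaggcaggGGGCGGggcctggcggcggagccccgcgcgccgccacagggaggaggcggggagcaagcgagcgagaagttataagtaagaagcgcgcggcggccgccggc
Klf9: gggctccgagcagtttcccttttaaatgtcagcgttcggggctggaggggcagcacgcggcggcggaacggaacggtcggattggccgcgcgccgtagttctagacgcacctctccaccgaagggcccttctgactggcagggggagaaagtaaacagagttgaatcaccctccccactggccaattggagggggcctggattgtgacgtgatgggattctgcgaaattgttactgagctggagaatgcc

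SP8 peaks were listed near 6 of the 10 genes and near none of the other 4. A peak was placed by its centre, and its distance was taken to the gene body, which counts as 0 inside the gene. With a limit of 200 kb, 9 peaks were found, each counted for 1 gene. Klf10, Klf14 and Klf16 had 2 peaks each, Klf3, Klf12 and Klf13 had 1 each, and Klf4, Klf5, Klf6 and Klf9 had 0. Among all protein-coding genes, 30.9% had a peak within 200 kb and 6.48% had one within 10 kb. The 6 genes with a peak within 10 kb were the same 6, and since nearness to a peak put them among the 10, nothing is read from that count. The map of peaks around the 10 genes shows that 6 of the 9 peaks were centred within 1 kb of a boundary of a Klf gene. The other 3 stood at a distance from it.

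**Figure D1:**
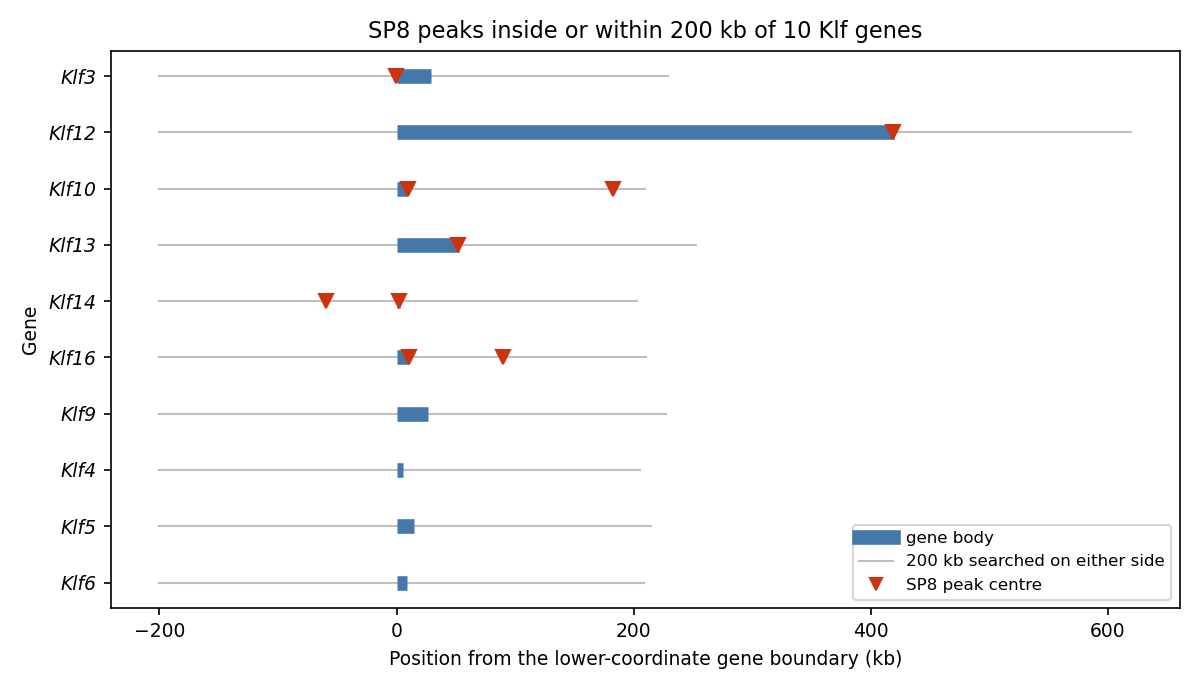
Position of SP8 peak centres (triangles) along each of the 10 Klf genes (bars) and the 200 kb searched on either side (lines), in kb from the gene boundary with the lower coordinate. The 6 upper genes each have a triangle within 1 kb of one end of the bar, and Klf9, Klf4, Klf5 and Klf6 have none.

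Among the genes of the CtBP-binding repressors, Klf3 and Klf12 each had a peak centred within 1 kb of a gene boundary, beside 2.81% of protein-coding genes. Klf8, which is not among the 10 genes, had its nearest peak at 85.6 kb. KLF3 is a repressor with roles in red blood cells, fat and epidermis. Its peak (chromosome 5, 64802967 to 64803733, number 422 in the list) was 766 bp wide and centred 171 bp upstream of the annotated start of Klf3. It covered all 300 bases of the Klf3 promoter window. The centre also lay inside the neighbouring protein-coding gene Gm38457, so the peak cannot be given to Klf3 alone. The nearest peak on the other side of Klf3 was 931.1 kb away, inside N4bp2.

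KLF12 was described as a repressor of the gene for the transcription factor AP-2 alpha, which is active in ectoderm. Klf12 is the longest of the 10 genes, at 419.7 kb, and its only peak within 200 kb (chromosome 14, 100284736 to 100285071, number 807) was 335 bp wide and centred 987.5 bp inside the 5′ boundary of the gene. This peak was not on the Klf12 promoter window used here, which belongs to a start 135.1 kb away from it, within the gene. The noncoding gene Gm41231 was 819.5 bp from the peak centre. The peak therefore marks the outer 5′ end of the Klf12 locus and not the start to which the window belongs.

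Among the genes of the SIN3-binding group, Klf10, Klf13, Klf14 and Klf16 had a peak centred within 1 kb of a gene boundary, beside 2.81% of protein-coding genes. Klf9 and Klf11, the latter not among the 10 genes, had none within 200 kb. KLF10 was first described as a gene induced early by TGF-beta. Its near peak (chromosome 15, 38300882 to 38301478, number 465) was 596 bp wide and centred 469 bp outside the boundary of Klf10 with the higher coordinate, within the noncoding gene Gm35248. A second peak (38473676 to 38474134, number 101, 458 bp wide) lay 173.2 kb beyond the same boundary. Its centre was inside Gm41308, which is not protein-coding, and its nearest protein-coding gene was Azin1, at 13.5 kb.

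KLF13 is a repressor and activator known from T cells and the heart. The peak at Klf13 (chromosome 7, 63937504 to 63939584, number 1362) was 2080 bp wide, the seventh widest of the 1451. It spanned the annotated start, with its centre 371 bp inside the gene, and covered all 300 bases of the promoter window. No other peak lay within 200 kb, and the next peaks were 774.1 kb away inside Chrna7 and 901.2 kb away inside Fam189a1. It was the widest of the 9 peaks near the 10 genes.

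KLF14 is encoded by a short gene of 2.97 kb near the imprinted genes Mest and Copg2, and its own transcript is imprinted. Its near peak (chromosome 6, 30957807 to 30958222, number 50) was 415 bp wide and lay wholly within the gene, 975.5 bp from the boundary with the higher coordinate and 1993.5 bp from the other. A second peak (30896333 to 30896969, number 811, 636 bp wide) was 59.4 kb away, inside Copg2. The Klf14 peak had the lowest list number of the 9 peaks.

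KLF16 is a repressor that was studied in metabolic and neural cells. Its near peak (chromosome 10, 80577537 to 80578123, number 902) was 586 bp wide and centred 534 bp outside the gene boundary with the higher coordinate. The noncoding gene Gm26710 was closer to it, at 294 bp, and the protein-coding gene Abhd17a was 5.82 kb away. A second peak (80657158 to 80657380, number 848, 222 bp wide) lay 80.0 kb away and 0.775 kb from Btbd2. Klf16 stands in the most gene-dense surroundings of the 10 genes, with 17 other protein-coding genes within 200 kb against 0 to 4 for the other members.

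The near peaks all lay close to a gene boundary. All 6 were centred within 1 kb of a boundary of the Klf gene, from 171 bp at Klf3 to 987.5 bp at Klf12. Klf14 is only 2.97 kb long, so any centre inside it lies close to a boundary. Over all protein-coding genes, 5.4% had a boundary within 10 kb of some peak centre and 2.81% had a boundary within 1 kb of one, so that 52.1% of the first set also fell in the second. The rule for the choice of genes used nearness, and these counts are a description. Between Klf12, the last of the 6, and the next gene among the 10, Klf4, the boundary distance went from 0.988 to 210.2 kb. The 6 genes entered for a near peak and Klf4 did not, so nothing is read from this step. Of the Klf genes outside the 10, Klf7, Klf1 and Klf8 fell within it, at 34.3, 42.0 and 85.6 kb. Klf2, Klf11, Klf15 and Klf17 lay farther from a peak than Klf4. In the 3 genes whose strand is given by a promoter window, Klf3, Klf12 and Klf13, the boundary was the 5′ end. For Klf10, Klf14 and Klf16 the strand was not taken from any table used here, and the boundary was the one with the higher coordinate. Exons and introns were not used here. The drawing of peaks against gene boundaries separates 3 placements: the peaks of Klf10 and Klf16 lay wholly outside the gene, those of Klf12 and Klf14 wholly inside, and those of Klf3 and Klf13 across the boundary.

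**Figure D2:**
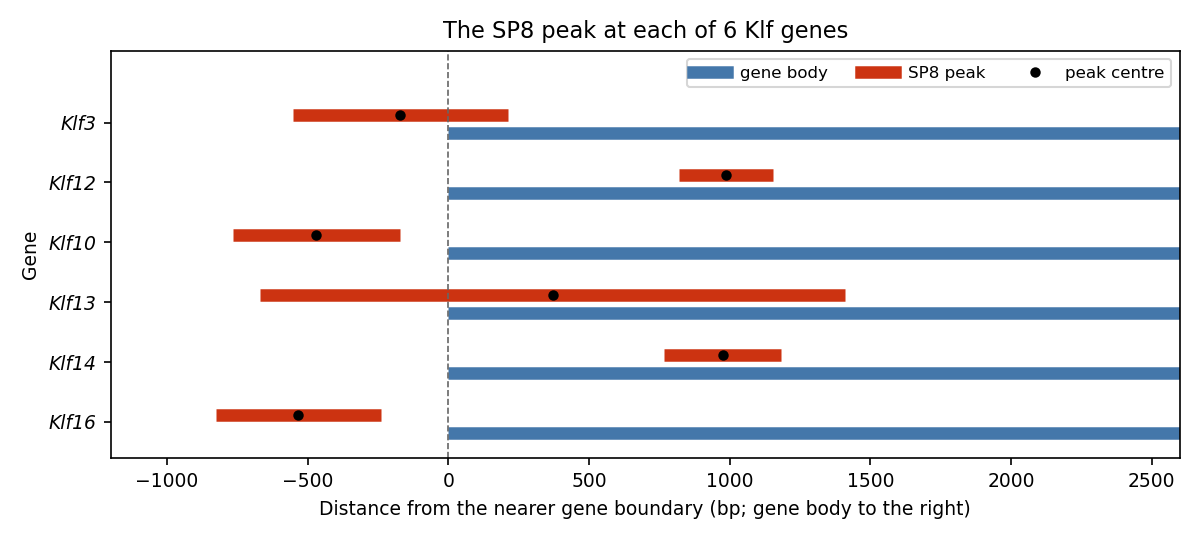
The SP8 peak at each of 6 Klf genes, in bp from the nearer gene boundary (dashed line), with the gene body drawn to the right and cut at the edge of the plot. Bars are the extents of the peaks and dots their centres, which lie 171 to 987.5 bp from the boundary.

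The 4 epithelial genes had no listed peak within 200 kb. For Klf4 the nearest peak (chromosome 4, 55316805 to 55317165, number 453, 360 bp wide) was 210.2 kb away, just beyond the limit, and 33.1 kb from Rad23b. On its other side the next peak was 1750 kb away, inside Ptpn3. For Klf9 the nearest peaks were 1513 kb away, inside 1110059E24Rik, and 2106 kb away, inside Kank1. KLF6 is a broadly expressed early-response factor, and its gene was farthest from any peak, at 3078 kb, near Idi2.

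Klf5 and Klf12 are neighbours on chromosome 14, with 552.8 kb between them. The peak nearest to Klf5 was the one at the 5′ end of Klf12, 971.5 kb away. On the other side of Klf5 the next peak was 33955 kb away, near Zfp395. The stretch without a listed peak around Klf5 was 34.9 Mb long, the second longest of 1427 gaps between consecutive peaks, whose median was 0.748 Mb. The corresponding gaps were 1.97 Mb around Klf4 and 3.64 Mb around Klf9. Klf6 has no such gap, because no peak was listed on its lower-coordinate side, and its distance is to the peak above it only. At unknown depth, a gene without a listed peak may have binding under the authors' threshold.

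The rest of the family was compared from a list of the other 7 Klf genes. By gene body, only Klf7 of these had a peak within 10 kb, beside 6.48% of protein-coding genes. KLF7 is known from neurons, and the Klf7 peak (chromosome 1, 64087846 to 64088306, number 36, 460 bp wide) lay deep inside the gene, 34.3 kb from its nearer boundary. The centre of this peak also lay inside Gm13748, which is not protein-coding. Within 200 kb there were also peaks for Klf1, the red blood cell factor (3 peaks, the nearest at 42.0 kb), and for Klf8 (1 peak at 85.6 kb). Klf2, Klf11, Klf15 and Klf17 had none, with nearest distances of 833.0, 226.1, 497.0 and 1606 kb. By cofactor group, a gene boundary within 1 kb of some peak was found for 2 of 3 genes of CtBP-binding proteins, for 4 of 6 genes of SIN3-binding proteins and for 0 of 6 genes of the activator group, beside 2.81% of protein-coding genes. The 6 genes counted are those that entered the set for their peaks, so nothing is read from these counts, and whether the groups differ was not tested.

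**Figure D3:**
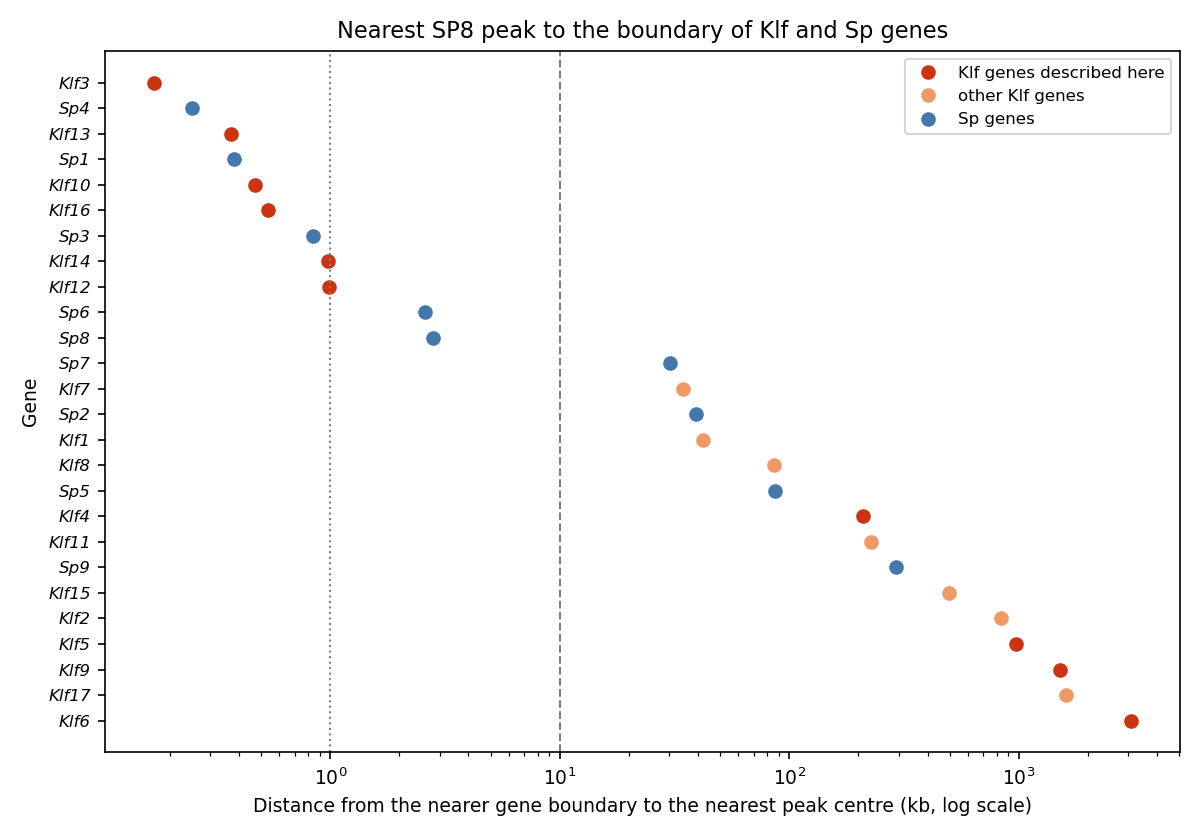
Distance in kb (log scale) from the nearer gene boundary to the nearest SP8 peak centre for the 10 Klf genes described here, the other 7 Klf genes and the 9 Sp genes, with lines at 1 and 10 kb. Klf3 has the shortest distance, 0.171 kb, and Klf6 the longest, 3078 kb.

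The Sp genes, the other branch of the family, had distances from 0.251 kb (Sp4) to 292.3 kb (Sp9). A peak was listed within 10 kb of 5 of 9 Sp genes (Sp1, Sp3, Sp4, Sp6 and Sp8), beside 6.48% of protein-coding genes. At Sp1, Sp3 and Sp4 it was centred within 1 kb of a boundary, at 380.5, 838 and 250.5 bp, beside 2.81% of protein-coding genes. The boundary distances of Klf10 (469 bp) and Klf16 (534 bp) lay between those of Sp1 and Sp3. At Sp6 and Sp8 the centres of the nearest peaks were 2.59 and 2.81 kb from a boundary, and these peaks were 1824 and 3587 bp wide. The wide Sp8 peak covered all 300 bases of an Sp8 promoter window. A second peak, 306 bp wide, lay 9.675 kb from Sp8. The Sp genes were taken up with earlier results of these data known, so nothing is read from their shares.

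The peaks at Klf genes were mostly wider than a typical peak. The 9 peaks within 200 kb had a median width of 586 bp (order-statistic 95% interval 335 to 766), and the 6 near peaks 591 bp. The median was 336 bp for the whole list and 344.5 bp for the 528 peaks within 1 kb of any protein-coding boundary. The interval treats 9 peaks of 1 library as independent, and it contains the median of the whole list. The quartiles of the whole list were 257.5 and 465.5 bp. Of the 6 near peaks, 5 were wider than the list median, and the Klf12 peak, at 335 bp, was 1 bp narrower. The Klf3, Klf10 and Klf16 peaks were wider than 93.7, 87.0 and 86.5% of the list, and the Klf14 peak was wider than 68.0%. The genes were not chosen by width, but peaks of 1 library are not replicates, so no test is given.

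The list number, which follows the file order and whose meaning is not stated, showed no common place for these peaks. The near peaks had numbers from 50 (Klf14) to 1362 (Klf13), 3 of them in the first 725. The Klf13 peak was the widest of the last 145 peaks of the list, whose median width was 322 bp. The other 9 of the 10 widest peaks had numbers from 25 (Sp8) to 1069 (Midn). The plot of width against list number shows the Klf13 peak apart from the others for this reason.

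**Figure D4:**
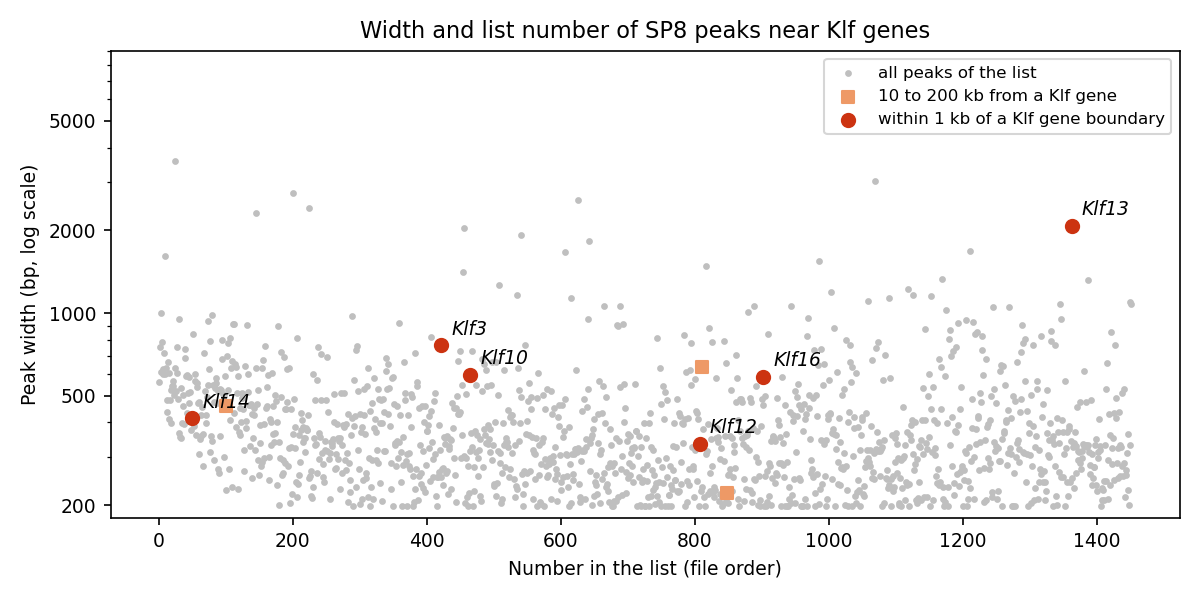
Width in bp (log scale) against number in the list for all 1451 SP8 peaks (grey), with the 6 peaks centred within 1 kb of a Klf gene boundary (circles, named) and the 3 peaks between 10 and 200 kb from a Klf gene (squares). The Klf13 peak, 2080 bp wide with number 1362, stands above the rest of the late part of the list.

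The promoter windows were searched on both strands for the GC box GGGCGG, the CACCC box GGGGTG and TAATTA, a core of homeodomain binding sites. Over the 300 bases, Klf3 held 6 GC boxes and 2 CACCC boxes, and Klf13 held 3 and 1. In the Klf3 sequence above, 1 GC box and 1 CACCC box overlap in the run GGGCGGGGTG, and in Klf13 they overlap in the run CCGCCCACCCC. Klf4, with no peak within 200 kb, held 4 GC boxes and 0 CACCC boxes. Klf6 held 1 GC box, Klf12 held 1 CACCC box, and Klf9 held 0 of either by these 6-letter definitions. Matches that lack the last base of CACCCC were not counted, and the printed Klf3 and Klf9 sequences both hold such matches. TAATTA was found in 0 of the 6 windows. A GC box was thus present in 4 of 6 windows, against 46.7% of 21045 windows of protein-coding genes. A CACCC box was present in 3 of 6 against 28.0%, and TAATTA occurs in 4.47% of all these windows. Klf3 and Klf13, which hold both boxes, entered the set for peaks that cover their windows. Of all protein-coding windows under a peak, 90.8% held a GC box and 37.2% a CACCC box. Among the other windows, Klf4 and Klf6 held a GC box and Klf9 and Klf12 did not. Klf12, the remaining window with a CACCC box, also entered for a peak. Nothing is therefore read from the shares of these 6 windows.

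**Figure D5:**
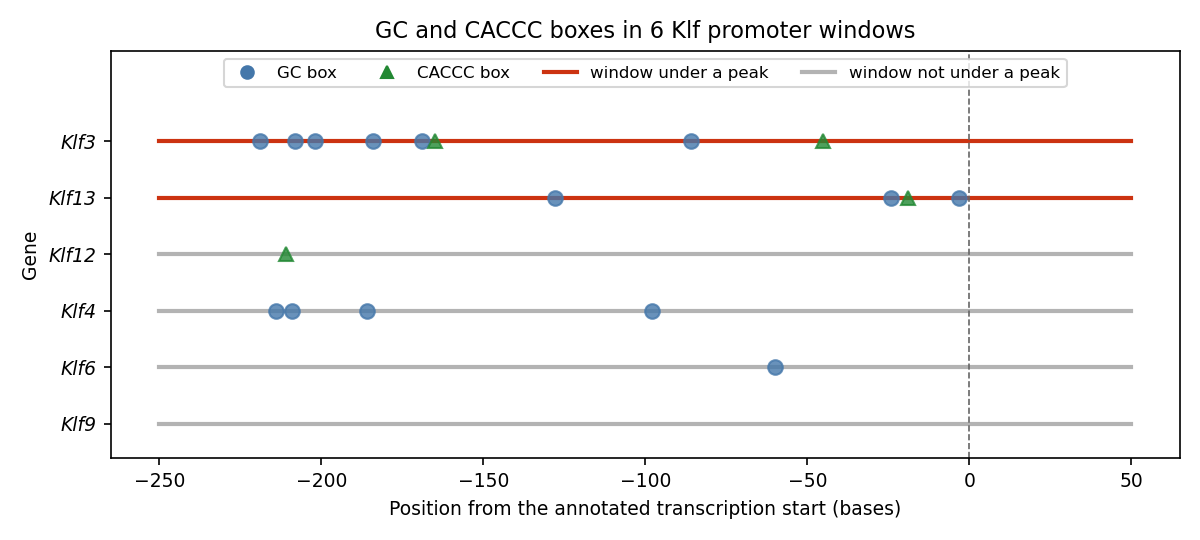
Position of GC boxes (circles) and CACCC boxes (triangles) in the promoter windows of 6 Klf genes, in bases from the annotated transcription start (dashed line); red windows lie under an SP8 peak. Klf3 holds 6 GC boxes and Klf13 holds 3 under a peak, and Klf4 holds 4 with no peak.

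A peak overlapped 2 of the 6 windows, Klf3 and Klf13, against 2.07% of windows of protein-coding genes, and these genes were chosen for their peaks. The 2 overlapped windows had G and C at 76.7 and 72.0% of their bases. Klf4 had 74.3%, Klf9 63.3%, Klf6 63.0% and Klf12 45.7%. The Klf12 window belongs to a start 135.1 kb from the Klf12 peak, so the sequence at that peak was not searched. Klf10, Klf14 and Klf16, which also had a peak centred within 1 kb of a gene boundary, had no window. The median over windows of protein-coding genes was 56.7%. Klf4, with no peak listed, thus lay between the 2 overlapped windows both in base composition and in number of GC boxes.

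The same windows over all genes place these counts. Of the 436 protein-coding windows that a peak overlapped, 90.8% held a GC box (Wilson 95% interval 87.7 to 93.2), against 45.7% of those not overlapped. A peak overlapped 0.356% of the windows with no GC box (interval 0.262 to 0.485), 2.49% with 1 to 2 (2.15 to 2.90), 6.40% with 3 to 5 (5.55 to 7.38) and 13.7% with 6 or more (10.7 to 17.5). Klf3 belongs to the last class of 394 windows and Klf13 and Klf4 to the class of 3 to 5. GC content moves with the number of GC boxes, and its part in the overlap was not tested. These intervals cover counting error over windows only.

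Proteins that work with KLF factors were then looked up from a list of 15 genes. Of these, 1 had a peak within 10 kb, Hdac1, which encodes a histone deacetylase of the SIN3 complex, beside 6.48% of protein-coding genes. That peak (chromosome 4, 129513778 to 129514145, number 1262, 367 bp wide) was 2.14 kb from Hdac1 and inside Marcksl1. The corepressor genes Ctbp1 and Sin3a had nearest peaks at 163.4 and 134.3 kb, and Ctbp2 and Sin3b at 2414 and 1237 kb. Within 200 kb there were peaks for 7 of 15, beside 30.9% of protein-coding genes. For all 7, the nearest peak lay inside or nearer to another protein-coding gene. The median nearest distance was 205.9 kb in this list and 480.8 kb over all protein-coding genes. This list was chosen with earlier results of these data known, so nothing is read from its shares or its median.

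In a list of 15 epidermal genes, 4 had a peak within 10 kb, beside 6.48% of protein-coding genes: Krt14, Grhl3, Trp63 and Tgm1. Krt14 encodes a keratin of basal epidermal cells, and its peak (chromosome 11, 100206437 to 100206724, number 211, 287 bp wide) lay inside the gene, 929.5 bp from a boundary. Grhl3, a transcription factor of barrier formation, had a peak inside it (chromosome 4, 135570106 to 135570307, number 1448, 201 bp wide), 3.43 kb from a boundary. Trp63, the regulator of stratified epithelium, had one inside it (chromosome 16, 25690702 to 25691065, number 66, 363 bp wide), 7.12 kb from a boundary. The peak near Tgm1, a transglutaminase of the cornified envelope, lay 8.02 kb away and inside Rabggta. The other 11 genes had no peak within 10 kb. Of these, Cdh1 (50.9 kb) and Krt10 (154.8 kb) had one within 200 kb. The nearest peaks were at 226.7 kb for Flg, 946.6 kb for Ivl, 1035 kb for Sprr1a and 1437 kb for Lor, genes of the epidermal differentiation complex that share the peak nearest to S100a11. They were at 277.0 kb for Dsg1a, 280.0 kb for Cdsn, 475.6 kb for Krt1, 613.5 kb for Krt5 and 665.8 kb for Cldn1. Within 200 kb the list thus held 6 of 15 genes with a peak, beside 30.9% of protein-coding genes, and its median nearest distance was 277.0 kb against 480.8 kb over all protein-coding genes. The epidermal list, too, was chosen with earlier results of these data known, so these values are a description only.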

How the data were processed

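One deposited table was used, a peak list whose name, given by the authors, cites SP8 replicate 1, q 0.1 and fold 3. Its 4 columns hold a sequence name, start, end and a number in file order, with no header, fold or q. The submitters' processing notes name GRCm38, mm10, FastQC, SAMtools, TopHat2, deepTools and MACS2, without roles. The control library and any pooling are not given in the sources used here. Positions are printed as deposited. Whether starts count from 0 or 1 is not stated, and width means end minus start.

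Distances from the 1447 peaks on chromosomes 1 to 19 and X were computed to RefSeq genes of GRCm38.p6 (starts from 3 Mb on) with Python 3.11.15, pandas 2.3.3 and numpy 2.4.6. Distance and motif functions were tested on simulated data. The members and lists were chosen with earlier results of these data known. Named were all 10 genes, every peak within 200 kb, its nearest gene, and listed genes with a peak within 10 kb. Other genes named, such as Klf1 or Ctbp1, were chosen after their values were seen. A planned comparison of the proteins was not made. No test is given, because 1 list has no replicates.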

Additional observations from a re-analysis of the deposited data

How the results depend on the processing

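Across 5 results, 21 alternatives were run, 3 of them added after the data were seen, and 15 stayed within 1.5 times the count or within the interval of the median. The count of 6 genes with a near peak was 6 with peak edges, with gene boundaries and with windows of 1, 5 and 20 kb, and 5 with the wider peaks of the list. These 6 genes were chosen for a near peak, so nothing is read from the unchanged count, though these alternatives are among the 15. The count was 3 with the first 725 peaks, which hold Klf3, Klf10 and Klf14, and 2 by distance to a transcription start, which only 6 of the 10 genes have. The 9 peaks within 200 kb became 18 at 500 kb, 4 in the first 725 peaks, 5 in the rest of the list, and 5 when only peaks nearest to the Klf gene counted, because 3 of the 9 lie nearer to Copg2, Azin1 or Btbd2 and the Klf3 peak lies inside Gm38457. Stricter folds or q values were not run, because the list gives neither. No paired analysis was possible because all values come from 1 library's peaks, and no replicate could be left out. Unknown depth limits statements on genes without a peak.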

Other observations

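The surroundings of other Klf genes held peaks that lay at different genes. The 3 peaks within 200 kb of Klf1 on chromosome 8 were inside Rtbdn (84947206 to 84947405, number 980, 199 bp wide), inside Junb (84976822 to 84977587, number 1031, 765 bp wide) and 1.52 kb from Junb (84980096 to 84980440, number 1361, 344 bp wide). Junb encodes a subunit of the transcription factor AP-1. The peak 85.6 kb from Klf8 on chromosome X (153139623 to 153139874, number 224, 251 bp wide) was inside Rragb. Among promoter windows of the other Klf genes, Klf11 held 4 GC boxes, as many as Klf4, and a peak overlapped neither.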
